A study of Mus musculus with 1037 samples.

Results

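Among hair follicle cells sorted as alive in late catagen (CatVII), some held messenger RNA of Cd34 and others did not, and the 2 sets were compared across the other genes. Cd34 encodes the surface glycoprotein by which mouse bulge stem cells are usually sorted. Members were the CatVII alive cells with at least 2000 detected genes and at least 100000 gene counts. A rounded Cd34 count of 1 or more placed 85 cells in the set with Cd34, and a count of 0 placed 39 cells in the set without Cd34. They were the alive cells among 394 cells that passed the same limits in all sorts, of 1036 cells with a column of counts, and 32 further alive cells were left out. The share with Cd34 was 68.5% (exact Clopper-Pearson 95% interval 59.6 to 76.6).

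Cells of both sets were wild type, came from mouse skin and are labelled as hair follicle epithelium of the upper outer root sheath, and no agent is named for them. Several mice were pooled before sorting and no animal is named, so both sets are parts of 1 sample, cells are not replicates, and no test was run between them. The labels state no age and no sex. By the study's gating scheme, sorted cells lacked Sca1 and the lineage proteins CD31, CD117, CD140a and CD45, were gated on surface CD34 and integrin alpha 6, and were called alive by annexin V and DAPI staining. The study speaks of stem cells high in surface CD34 and of progenitors low in it among its catagen cells, and the CD34 protein level of a single cell was not analysed here. Single-cell transcriptomes were made by Smart-seq2, which reads whole transcripts without molecular identifiers.

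The bulge is the part of the outer root sheath where hair follicle stem cells rest between hair cycles, and catagen is the phase in which the lower follicle regresses towards it. Bulge cells are known for Cd34, Krt15, Sox9, Lgr5, Nfatc1 and the secreted proteins Ltbp2, Angptl7 and Postn. The hair germ beneath the bulge holds progenitors that share Lgr5 but carry little CD34, while cells above the bulge are known for Krt79, Krt17, Lrig1 and Lgr6, and the inner bulge layer for Krt6a.

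The split rested on Cd34 alone (chr1:194621029-194647172, plus strand, GRCm39), so its own values are a description. Counts in the 85 cells ran from 1 to 2433, and 63 cells held 100 or more. Scaled to 1000000 gene counts per cell (CPM), the level had a mean of 183.9 and a median of 162.8, with a highest value of 1049. Just inside the limit stood cells with counts of 1, 3, 6, 10, 10, 12, 20 and 20. The cell with 1 count was deep, at 3367683 gene counts, and reached 0.297 CPM. Outside the limit every cell was at 0. By counting error alone a count of 0 allows up to 3 counts, which stand for a median of 1.30 and at most 9.41 CPM. Transcripts lost before sequencing are not covered by that bound. Few cells thus lay near the limit, and the 2 sets were far apart in counted Cd34 for most cells.

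Depth was alike in the 2 sets. Gene counts per cell had medians of 2155697 with and 2314236 without Cd34, within a range of 176297 to 5896655, and detected genes had medians of 5067 and 5229. An identifier without a gene name, ENSMUSG00000106106.2, took a median of 67.7% and 67.05% of the counts, and mitochondrial genes took 2.16% and 2.04%. After each cell was thinned to 100000 counts, 4 cells lost Cd34 and the share with it was 65.3%. The titles hold 68 well labels carried by 2 cells each, which divided most cells into 2 sets of wells, and the share with Cd34 was 66.7% of 60 cells in one and 71.9% of 57 in the other. Same-label pairs of kept cells were no more alike than other pairs, with a median correlation of 0.388 against 0.394 for any pair. The highest was 0.47 among these 49 pairs and 0.58 for any pair.

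Basal keratinocyte genes marked both sets as epithelium. Krt5, the basal keratin, was detected in 85 of 85 and 39 of 39 cells at means of 1750 and 1559 CPM. Among 13 basal genes, of which 13 passed the filter below, none differed 2-fold, and their median log2 ratio was 0.14. Over all genes that passed, 10.7% differed 2-fold in either direction, a share at which few of 13 would differ, and the median was -0.13. Xist, the transcript of the inactive X chromosome, was counted in 84 and 38 cells, and of 4 Y-linked genes only Kdm5d was counted, in 1 cell.

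Across genes detected in at least 20 of these cells and reaching 5 CPM in the higher set, 6702 genes could be compared. The measure was the log2 ratio of (mean CPM + 1) in cells with Cd34 to that in cells without. On this scale 4.21% of the genes tested were at least 2-fold higher with Cd34 and 433 genes, or 6.46%, were at least 2-fold lower. The median over all genes was -0.13, so a gene of average behaviour was slightly lower in the cells with Cd34. The balance of these counts depended on scaling: 39.4% of the called genes were higher as given, 52.1% under median-of-ratios scaling, 55.96% under TMM scaling, 55.02% without the highest cell of each gene in each set and 53.8% relative to the median gene. Over all genes tested, the log2 ratios of the 2 sets of wells had a correlation of 0.29. Of the higher genes 50.7% were past 2-fold in both sets of wells, as were 39% of the lower genes. These shares partly follow from the choice, since the genes were called on the same cells, and the share over all genes was not taken. No p-value belongs to these counts, and each of the 27 genes described next as markers of the split or by its ratio was at 0 in at least 1 cell of each set, so that their ranges overlapped.

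Ltbp2 and Angptl7, the bulge genes among the markers of this split, were higher with Cd34. Ltbp2, a matrix protein of the latent TGF-beta binding family (chr12:84829986-84923306, minus strand), ran from 0 through a median of 92.6 to 771 CPM with Cd34, and from 0 through 0 to 192.2 CPM without. Its means were 126.4 and 18.01 CPM, a log2 ratio of 2.74, and 72 of 85 cells (84.7%, interval 75.3 to 91.6) against 14 of 39 cells (35.9%, 21.2 to 52.8) detected it. Most cells without Cd34 were thus at 0 for Ltbp2, and thinning left the shares at 81.2% and 28.2%. Angptl7, a secreted angiopoietin-like factor (chr4:148579639-148584923, minus strand), had medians of 50.6 and 0 CPM, highest values of 1659 and 867 CPM, and means of 160.9 and 52.4 CPM, a log2 ratio of 1.60. It was detected in 64 of 85 cells and in 8 of 39. A single cell without Cd34 held 42.4% of the summed Angptl7 level of its set.

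Taken by cell, 56 of 85 cells with Cd34 held Ltbp2 and Angptl7 together and 5 held neither, whereas 3 of 39 cells without Cd34 held both and 20 held neither. The keratin markers gave a different picture. Krt6a, a keratin of the inner bulge and companion layer that shares much sequence with Krt6b, had means of 150.1 and 111.2 CPM, a log2 ratio of 0.43 that did not reach 2-fold, although 64 of 85 against 19 of 39 cells detected it. Krt79, a keratin of the upper follicle duct, was counted in 4 cells with and 1 cell without Cd34, too few to pass the filter. Its means of 4.09 and 1.32 CPM rested on a highest cell of 308 and one of 51.6 CPM.

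**Figure D1:**
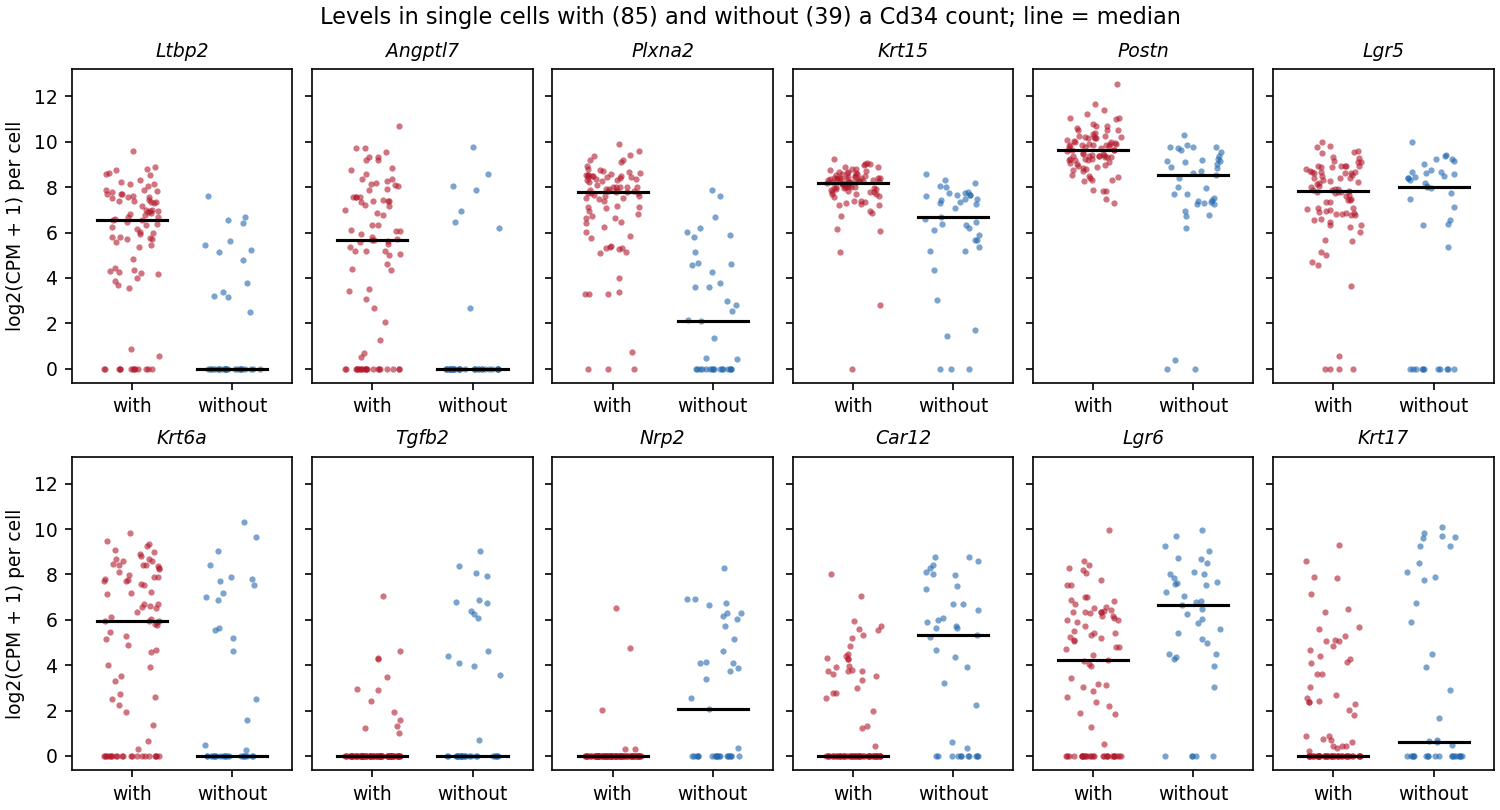
Each point is 1 alive CatVII cell, with log2(CPM + 1) on the vertical axis, for 12 genes in 85 cells with and 39 cells without a Cd34 count. Black lines are medians. Ltbp2, Angptl7 and Plxna2 sit higher with Cd34, Car12, Nrp2 and Lgr6 sit higher without, Lgr5 medians are close, and the sets overlap in every panel.

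Among protein-coding genes with at least 20 CPM in the higher set that kept their direction in both sets of wells and after thinning, the 12 with the highest ratios were Igfbp3, Adcy1, Col3a1, Plxna2, Pdzrn4, Col1a1, Ltbp2, Col1a2, Atp2a3, Ednra, Fam171b and Col6a1. Plxna2, a semaphorin receptor, stood out for its breadth: 82 of 85 cells with Cd34 detected it, at a median of 220 and a mean of 240 CPM, against 23 of 39 cells at a median of 3.32 and a mean of 24.7 CPM. Its log2 ratio was 3.23, and thinning widened the contrast of shares to 94.1% against 33.3%. Plxna2 (chr1:194300526-194499177) lies on the same strand as Cd34, 121.9 kb before it. Within 1000 kb of Cd34 the other genes tested were Gm37783, with a log2 ratio of 2.16, and the complement regulator Cr1l, with 0.16.

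Pdzrn4, which encodes a PDZ and RING domain protein, was counted in 78 of 85 and 12 of 39 cells at means of 34.6 and 2.83 CPM, a log2 ratio of 3.22. Ednra, the endothelin A receptor, was counted in 63 and 10 cells at 48.4 and 9.08 CPM, a log2 ratio of 2.29. Fam171b was counted in 57 and 7 cells, and Atp2a3, a calcium pump of the endoplasmic reticulum, in 39 and 7 cells, with log2 ratios of 2.13 and 2.31. Pdzrn4, Ednra and Fam171b thus reached most cells with Cd34 and few without, while Atp2a3 was at 0 in most cells of either set.

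Igfbp3, a secreted binding protein of insulin-like growth factors, and Adcy1, an adenylate cyclase, were mostly counted in cells with Cd34 but, like Atp2a3, not in most of them. Igfbp3 was counted in 37 of 85 cells at a mean of 23.8 CPM and in 4 of 39 cells at 0.125 CPM. Adcy1 was counted in 42 and in 2 cells, at 23.02 and 0.306 CPM. The log2 ratios of 4.46 and 4.20 depend on the 1 CPM added to each mean, since the lower means lie below it. The 2 genes are neighbours on chromosome 11, 27.6 kb apart on opposite strands.

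The fibrillar collagens behaved otherwise. Col3a1 had a log2 ratio of 3.82 but was detected in 18 of 85 cells with and 7 of 39 cells without Cd34, which are shares of 21.2% and 17.9%. A single cell with Cd34 at 6445 CPM held 77.8% of the Col3a1 level of its set, 45.1% of that of Col1a2 and 30.9% of that of Col1a1, fibrillar collagens that are main products of fibroblasts. Without 36 cells (28 with and 8 without Cd34) the log2 ratio turned to -0.29 for Col3a1 and -0.88 for Col1a2. Col1a1, counted in 42 of 85 and 10 of 39 cells, stayed at 1.73 or more in log2 under each alternative run. The cells left out held at least 10 counts of 2 or more fibroblast genes, a choice made after these values were seen. Col1a1, Col1a2 and Col3a1 are among those fibroblast genes, so the turn is partly built into the choice. Col6a1, which encodes a chain of collagen VI, was counted in 49 and 8 cells at 68.1 and 15.6 CPM and was at least 1.11 in log2 under each alternative run.

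Fibroblast markers went with the Cd34 split as a list. At least 1 of 10 fibroblast and dermal papilla genes was counted in 60 of 85 cells with and 17 of 39 cells without Cd34, and their summed level ran from 0 to 12455 CPM in the first set and from 0 to 368 CPM in the second. Of the list, 3 genes passed the filter, and these 3 were higher with Cd34. Defining genes were rare: Pdgfra was counted in 9 and 1 cells, Dcn in 4 and 0, and Corin in none. The ratios of Ltbp2, Angptl7, Plxna2, Pdzrn4 and Ednra stayed past 2-fold without the 36 cells named above. That removal took 28 of the 85 cells with Cd34, fewer than the 60 with any count of the list. The part of fibroblast RNA in the other differences was not tested. Immune genes were counted in 6 and 4 cells; 1 cell without Cd34 reached 852 CPM of them in sum. The endothelial list, with any count in 15 and 4 cells, reached at most 70.7 and 61.4 CPM. Of the melanocyte list Mlana, Tyrp1 and Kit were at 0, and its sum was mostly Mitf, at 52.4 against 12.6 CPM.

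Among genes lower with Cd34, the 12 with the lowest ratios were Tgfb2, Nrp2, Tspan18, Foxi3, Arrb1, Tnfrsf19, Alox12e, Adamts9, Rasgef1b, Car12, Ly6e and Slc7a2. Tgfb2, a TGF-beta ligand, had a mean of 2.71 CPM with and 51.4 CPM without Cd34, a log2 ratio of -3.82, and was detected in 13 of 85 and 16 of 39 cells. The 28 cells without Cd34 that detected Lgr5, described below, had a Tgfb2 mean of 2.24 CPM. Nrp2, a co-receptor for semaphorins and VEGF, was counted in 5 of 85 and 21 of 39 cells at 1.43 and 32.04 CPM, a log2 ratio of -3.77. Foxi3, a transcription factor of early hair follicle development, was counted in 10 and 20 cells, and Tnfrsf19, a receptor of the TNF family, in 7 and 19. Both were thus rare in the larger set and present in about as many cells as not in the smaller one. The size of several ratios differed between the 2 sets of wells: it was -2.14 and -4.71 for Tgfb2, -2.19 and -5.17 for Tnfrsf19, and -3.73 and -3.73 for Nrp2. In at least 1 set of wells the fold moved by over 1.5 times for 7 of the 12 highest and 6 of the 12 lowest genes.

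Car12, a membrane carbonic anhydrase, reached more of the cells without Cd34. It was counted in 28 of 39 cells at a median of 39.1 and a highest value of 431 CPM, against 31 of 85 cells at a median of 0 and a highest value of 260 CPM, a log2 ratio of -3.03. Rasgef1b, an exchange factor for small GTPases, was counted in 28 of 39 and 34 of 85 cells at means of 92.6 and 10.1 CPM. Adamts9, a secreted metalloprotease, was counted in 26 and 28 cells at 66.9 and 7.01 CPM. Alox12e, an epidermal lipoxygenase, was concentrated in few cells of either set, 13 without and 8 with Cd34, and reached 1494 and 391 CPM at most. The remaining genes were Tspan18, Arrb1, Ly6e and Slc7a2, with log2 ratios from -3.59 to -2.89. By set of wells the ratio was -1.19 and -4.62 for Slc7a2 and -1.77 and -3.77 for Arrb1.

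**Figure D2:**
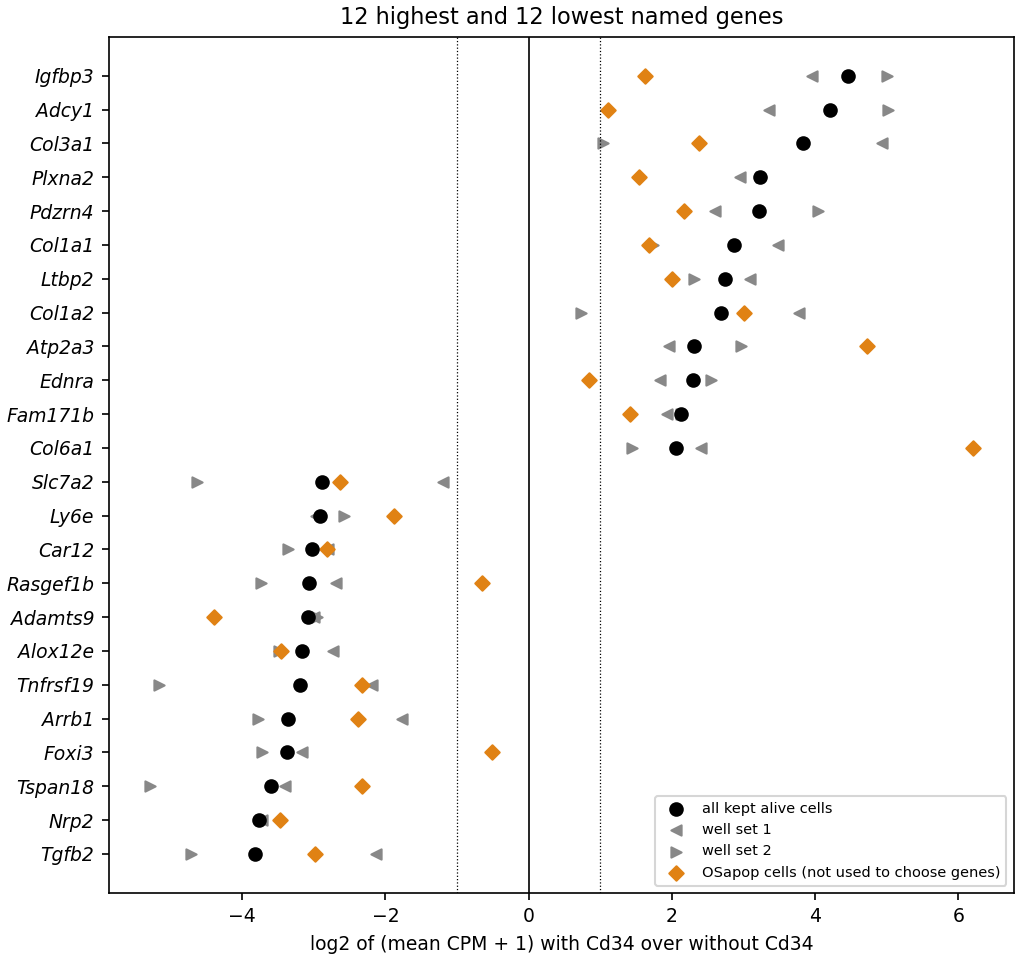
Horizontal axis, log2 ratio of (mean CPM + 1) with over without Cd34 for the 12 highest and 12 lowest named genes; circles are the kept alive cells, triangles the 2 sets of wells, diamonds the OSapop cells. Dotted lines mark 2-fold. Well set 2 falls to 0.73 for Col1a2, and the diamonds lie on the side of the circles for 24 genes, within 2-fold for Ednra, Rasgef1b and Foxi3.

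The number of these genes detected per cell also differed between the sets, which does not measure whether they went together within cells. Of the 12 highest genes a cell with Cd34 detected a median of 7 (0 to 11) and a cell without a median of 3 (0 to 8). Of the 12 lowest genes the medians were 2 (0 to 9) and 7 (1 to 10). Since the genes were chosen on these cells, the contrast is a description of the choice.

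Gene lists of the hair follicle were described by counts and by their median, to be read beside all genes tested, of which 4.21% were higher, 6.46% lower and 10.7% either, with a median of -0.13. Bulge stem cell genes other than Cd34 numbered 21, and 21 passed the filter: 5 were 2-fold higher, 1 was 2-fold lower and 15 were neither, with a median of 0.33. Besides Ltbp2 and Angptl7, the higher ones were Krt15, Postn and Dkk3. Krt15, a keratin of the bulge, had medians of 292.3 and 101.1 CPM and a log2 ratio of 1.17. Postn, which encodes the matrix protein periostin, had medians of 802 and 376 CPM and a log2 ratio of 1.23. Both were detected in nearly every cell of either set, so that these were differences of level more than of detection.

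Bulge regulators were closer together. Sox9, a transcription factor of outer root sheath stem cells, had means of 260.6 and 137.2 CPM and a log2 ratio of 0.92, just under 2-fold. Lgr5, a receptor for R-spondins, had means of 281.7 and 264.2 CPM, but 81 of 85 against 28 of 39 cells detected it. Col17a1, a collagen of the hemidesmosome, had a log2 ratio of 0.57 and was detected in every cell of either set. Runx1, a transcription factor of the follicle, was the bulge gene that was 2-fold lower with Cd34, at medians of 35.8 and 86 CPM and a log2 ratio of -1.23. It was still detected in 80 of 85 and 39 of 39 cells.

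Of 15 upper follicle genes 6 passed the filter, of which 2 were 2-fold lower, with a median of -0.55. Krt17 was counted in 40 of 85 cells at a mean of 26.01 CPM and in 21 of 39 cells at 177.6 CPM. The 28 cells without Cd34 that detected Lgr5, described below, had a Krt17 mean of 7.50 CPM, and the other 11 had 611 CPM. Lgr6, a relative of Lgr5, was counted in 58 and 34 cells, with medians of 17.7 and 98.8 CPM and a log2 ratio of -1.48. Lrig1, a restraining partner of growth factor receptors, had means of 33.9 and 39.2 CPM. The other 9 members, Gata6 and Sprr1a among them, were too sparse.

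Hair germ genes did not go one way. Of 12, 8 passed the filter, 1 was 2-fold lower and 7 were neither, with a median of -0.29. Lef1, a transcription factor of Wnt signalling, was the lower one, at 5.07 and 22.5 CPM in 22 of 85 and 21 of 39 cells. Gli1 and Ptch1, which report hedgehog signalling, had log2 ratios of -0.95 and -0.95, and P-cadherin (Cdh3) had -0.32. Shh was at 0 in every cell.

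TGF-beta latency and matrix genes stood on either side. All 25 were detected and 23 passed the filter: 4 were higher, 3 lower and 16 neither, with a median of 0.20, against 4.21% higher, 6.46% lower and a median of -0.13 over all genes. The ligands were lower with Cd34: Tgfb3 was counted in 14 of 85 and 18 of 39 cells at 5.95 and 40.4 CPM, and Tgfb1 had means of 6.86 and 14.7 CPM. The binding protein Ltbp2, the matrix proteins Postn and Sparc, and the proteoglycan Bgn were higher, Sparc at 151.2 and 63.7 CPM. Thbs1, a matrix protein that can activate latent TGF-beta, had means of 572 and 692 CPM, within 2-fold.

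Wnt and BMP genes held 27 members, of which 21 passed the filter, 4 higher and 3 lower, with a median of 0.11, beside the same shares and median of all genes. The higher genes were the inhibitors Sfrp1, Dkk3 and Grem1 and the BMP target Id2. Sfrp1, a secreted Wnt antagonist, was counted in 82 of 85 and 24 of 39 cells at medians of 73.1 and 1.73 CPM. Grem1, a secreted BMP antagonist, was counted in 73 and 17 cells at means of 99.9 and 28.1 CPM. The lower genes were ligands: Wnt7b at 4.68 and 35.4 CPM, Wnt4 at 4.003 and 13.2 CPM and Bmp7 at 9.93 and 32.8 CPM. In the 28 cells without Cd34 that detected Lgr5, described below, Wnt7b stood at 1.16 CPM. Frizzled receptors Fzd1, Fzd6 and Fzd7 were within 2-fold.

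Apoptotic corpse receptors and bridging molecules, which bind dying cells for engulfment, held no called gene among few that could be tested. Of 22 genes, 10 passed the filter and none was called, with a median of 0.29. Over all genes 10.7% were called in either direction, a share at which 10 genes would hold about 1, so the absence of calls is near the background. Mertk, a receptor of the TAM family, had means of 41.1 and 45.5 CPM, its relative Axl 49.8 and 30.9 CPM, and the bridging protein Mfge8 88.7 and 48.7 CPM. None of the 18 lysosomal genes that passed out of 24 was called, with a median of 0.20, and Ctsb, a lysosomal protease, had means of 154.6 and 116.2 CPM. None of the 9 retinoid and nuclear receptor genes that passed out of 20 was called, with a median of -0.58. Rxra, a partner receptor for retinoic acid receptors, had means of 82.04 and 95.9 CPM, and Rarg 94.8 and 67 CPM. The medians of these lists stood beside -0.13 over all genes.

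Of the inner bulge and companion list 2 of 8 genes passed, and Krt80 was higher, at 69.6 and 18.6 CPM. Among 16 suprabasal genes 5 passed and 2 were higher, Dmkn and Calml3, the latter at 165.6 and 72.5 CPM in 82 of 85 and 31 of 39 cells. Proliferation genes were sparse, with Mki67 in 6 and 3 cells and 2 of 13 genes past the filter, of which the replication factor Mcm2 was lower. Of 18 immediate early and stress genes 16 passed and 1 was higher, Ccn1, while Fos had means of 182.99 and 238.1 CPM and Jun 319 and 366 CPM. Inner root sheath (2 of 12 passed) and sebaceous genes (3 of 10 passed) held no called member.

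**Figure D3:**
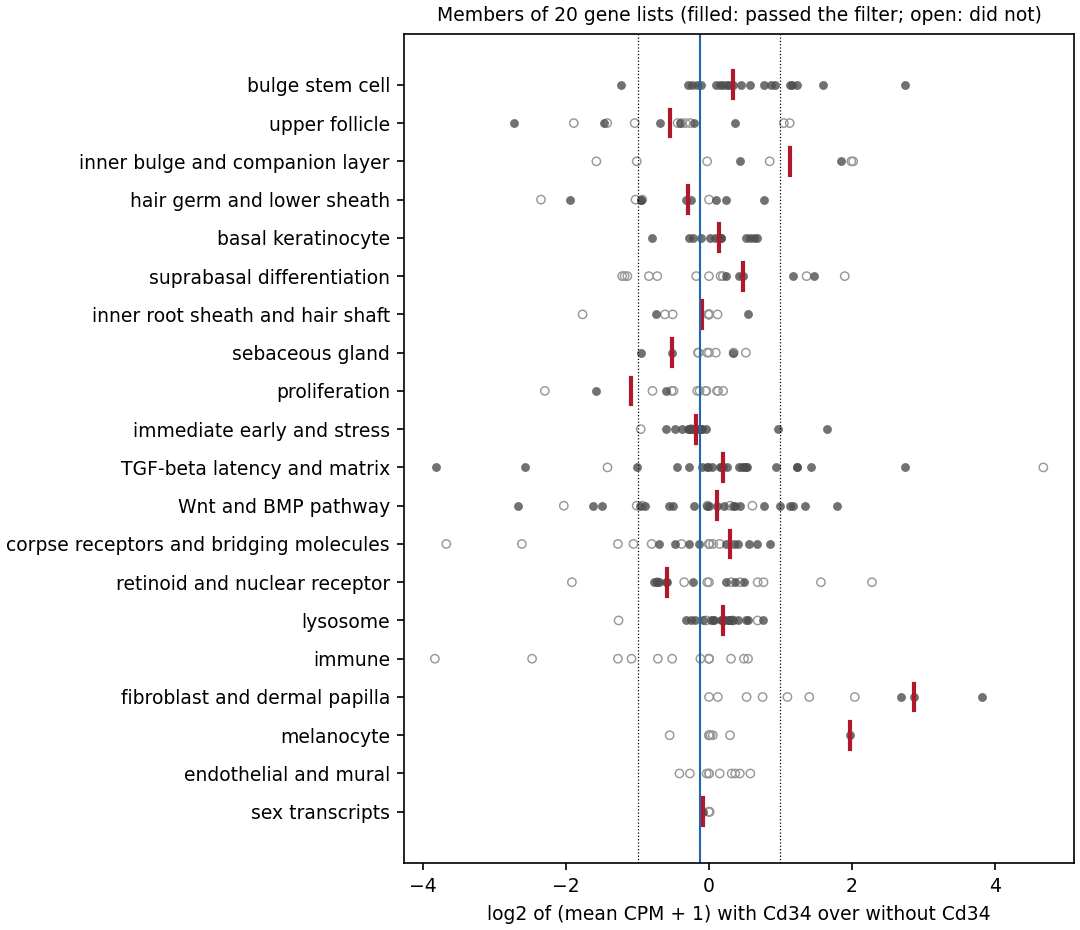
Each mark is a gene of 1 of 20 lists, at its log2 ratio with over without Cd34; filled marks passed the filter, open ones did not, red bars are list medians of filled marks and the blue line is the median of all genes, -0.13. Dotted lines mark 2-fold. The bulge median stands at 0.33 and that of the upper follicle at -0.55, and members of most lists stand on either side of 0.

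Cells with Cd34 were also divided at their median Cd34 level, into 42 lower cells (0.297 to 158.2 CPM) and 43 upper cells (162.8 to 1049 CPM). Ltbp2 means were 18.01 CPM at 0, 93.8 CPM in the lower and 158.3 CPM in the upper cells, and Angptl7 means were 52.4, 97.05 and 223.3 CPM. Postn means were 416, 702 and 1243 CPM and Sfrp1 means 41.7, 74.2 and 140.4 CPM, in the same order. Car12 went the other way, with means of 97.2, 18.1 and 4.22 CPM, as did Runx1 with 131.5, 77.9 and 33.5 CPM and Lgr6 with 181.1, 77.7 and 51.7 CPM. Foxi3 was counted in 51.3%, 23.8% and 0% of the cells. Upper cells were shallower, at a median of 1796361 gene counts against 2353600.5 in the lower ones. By mean, 12 of the 12 highest and 10 of the 12 lowest named genes went from lower to upper cells as in the split. The named genes were chosen on these same cells, and the share of all genes going that way was not taken, so these counts have no background. The exceptions were Nrp2, with means of 0.709 CPM in lower and 2.13 CPM in upper cells, and Tnfrsf19, with 1.09 and 4.39 CPM. The share of cells detecting went against the split for Col3a1 (23.8% of lower and 18.6% of upper cells) and Atp2a3 (50% and 41.9%). It also did so for Pdzrn4 (92.9% and 90.7%), Arrb1 (7.14% and 11.6%) and Tnfrsf19. The cell with Col3a1 at 6445 CPM was an upper cell. Krt6a had means of 111.2, 161.6 and 138.8 CPM and Lgr5 264.2, 334.7 and 229.9 CPM, with the highest mean in the lower cells.

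Cells without Cd34 were not uniform. After their values were seen, they were divided by Lgr5 into 28 cells that detected it and 11 that did not, which is a description with no test. Each of the 11 cells without Lgr5 held Tgfb2 (mean 176.7 CPM), Krt17 (611 CPM), Wnt7b (122.4 CPM), Lgr6 (366 CPM) and Nfatc1 (457 CPM), and none held Ltbp2 or Foxi3. Alox12e was counted in 8 of them at a mean of 391 CPM, and Npnt, a matrix protein of the bulge, in 2. These 11 cells were deep, with a median of 2544915 gene counts and 6070 detected genes, more than the other cells without Cd34.

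The other 28 cells, with a median of 1676589.5 gene counts, had another set of genes. Foxi3 was counted in 20 of them, Tnfrsf19 in 16, Car12 in 22, Npnt in 25 and Ltbp2 in 14, whereas Tgfb2 was counted in 5, Wnt7b in 2 and Krt17 in 10, at a mean of 7.50 CPM. Of the 12 lowest genes, Tgfb2 and Alox12e were thus mostly from the 11 cells, as was Arrb1. Foxi3, Tnfrsf19 and Car12 were mostly from the 28. Krt15 stood at 158.4 CPM in the 28 and 49.4 CPM in the 11, below the 291.99 CPM of the 81 cells with Cd34 and Lgr5. Among cells with Cd34, 4 lacked Lgr5. The cell with a Cd34 count of 1 was among them and held Lgr6 at 994, Krt17 at 622, Wnt7b at 87.3 and Tgfb2 at 19 CPM, with no Ltbp2.

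**Figure D4:**
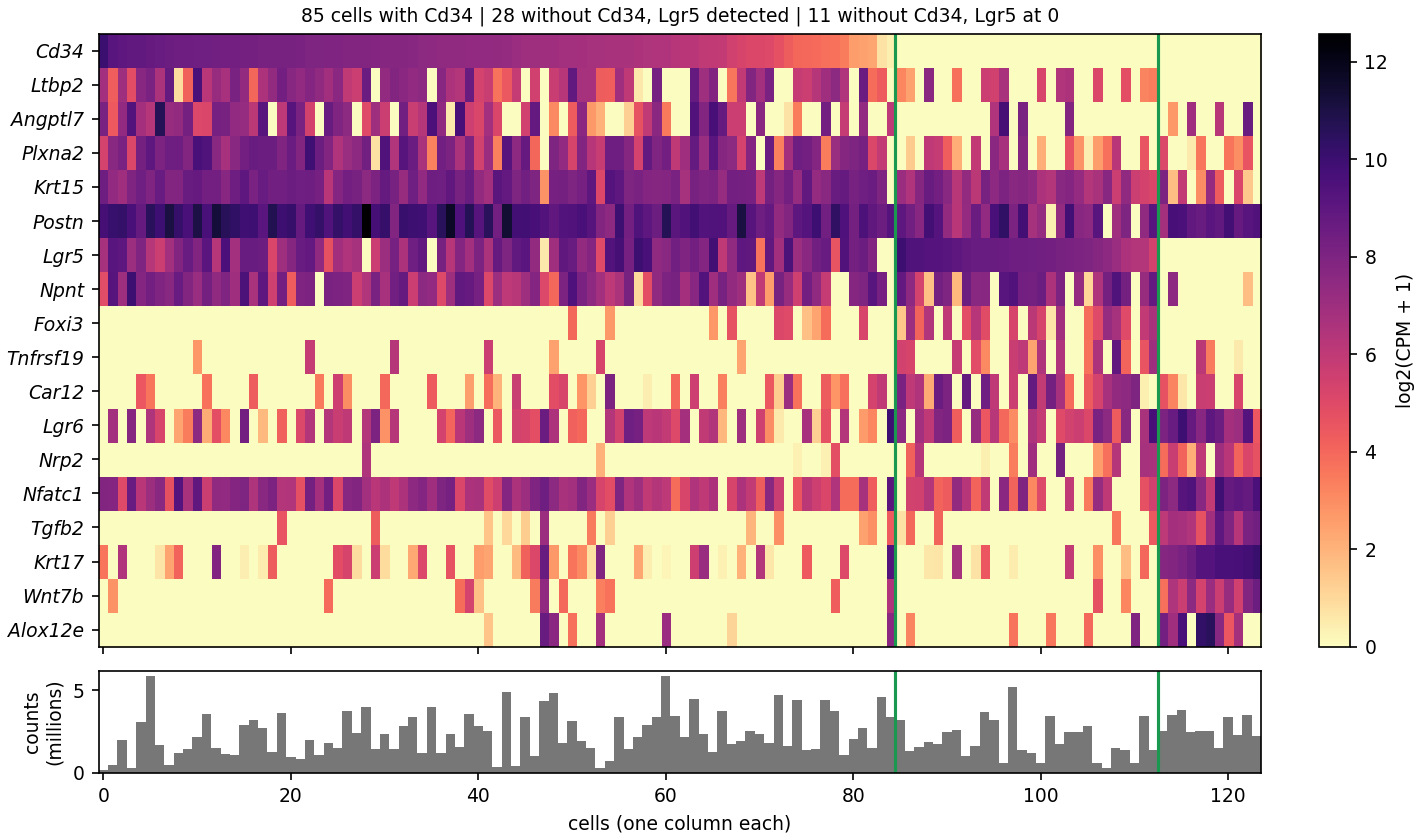
Columns are the kept alive cells, ordered by Cd34 and, without it, by Lgr5 and then Krt17; rows are 18 genes coloured by log2(CPM + 1), with the gene counts of each cell beneath. Green lines bound the 85 cells with Cd34, 28 cells without it that detect Lgr5 and 11 that do not. Tgfb2, Krt17, Wnt7b and Lgr6 are dark across the 11 cells, and Foxi3, Tnfrsf19 and Car12 are scattered over the 28.

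The same split was made in sorts that the rule did not use. A further CatVII sort of the upper outer root sheath, titled OSapop without explanation in the labels, had 58 kept cells with and 21 without Cd34 (73.4% with, interval 62.3 to 82.7), at medians of 638162.5 and 609116 gene counts. Of its 6299 genes that passed the filter, 4.98% were 2-fold higher and 9.06% 2-fold lower. Genes called higher in the alive cells were above 0 there in 70.3% of cases against 37.4% of all genes, and genes called lower were below 0 in 79.6% against 62.6%. The correlation over genes was 0.37, a description over genes, which share libraries and are not independent.

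By mean, the named genes kept their direction in the OSapop cells for 12 of 12 highest and 12 of 12 lowest genes. Of these, 11 and 10 were past 2-fold. The share of cells detecting went the other way for Col3a1 (12.1% with and 23.8% without Cd34) and Slc7a2 (44.8% and 38.1%). Ltbp2 had means of 133.3 and 32.6 CPM there, a log2 ratio of 1.998. Angptl7 did not separate by mean, with a log2 ratio of 0.16, although 32 of 58 cells with and 6 of 21 without Cd34 detected it. The division by Lgr5 recurred in counts for part of its genes. Each of 6 OSapop cells with neither Cd34 nor Lgr5 held Tgfb2, Krt17, Wnt7b, Lgr6 and Nfatc1, also after thinning. Before thinning, 4, 7, 3, 11 and 11 of the 15 cells without Cd34 that held Lgr5 did so. The 6 cells were deeper, at a median of 1634224.5 gene counts against 593511. Car12 was counted in 12 of the 15 and 2 of the 6 cells, and Foxi3 in 6 and 1. Npnt was counted in 11 and 1, and Ltbp2 in 7 and 1. Tnfrsf19 did not separate, in 4 and 2 cells at means of 18.77 and 21.99 CPM.

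**Figure D5:**
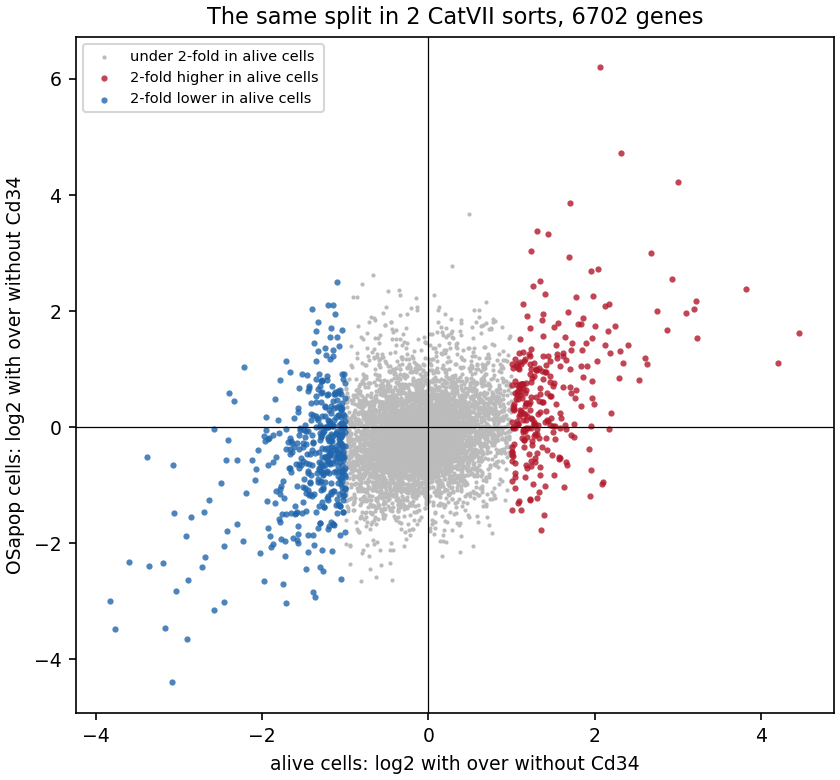
Each point is a gene of the 6702, with its log2 ratio with over without Cd34 in alive cells on the horizontal axis and in OSapop cells on the vertical axis. Red and blue points are the genes 2-fold higher and 2-fold lower in alive cells. The blue cloud lies mostly below 0 and the red mostly above, and many points of either colour lie near 0 in the OSapop cells.

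In late anagen (AnaVI) the upper-middle outer root sheath sorts titled UOS and MOS held few cells without Cd34. UOS had 97 cells with and 5 without Cd34 (95.1% with), and the 5 cells were shallow, at a median of 205534 gene counts against 556140. There 16.4% of genes were 2-fold higher and 19.8% lower, 8 of 12 highest and 8 of 12 lowest named genes kept their direction, and Plxna2 had a log2 ratio of 0.02. Genes called higher in the alive cells were above 0 in UOS in 66.5% of cases against 42.3% of all genes, and genes called lower were below 0 in 69.8% against 57.7%. MOS had 14 and 11 cells (56% with), 15.1% of genes higher and 18.8% lower, and 6 of 12 highest and 9 of 12 lowest genes kept their direction. In MOS the genes called higher were above 0 in 45.6% of cases, no more than the 46.8% of all genes, and genes called lower were below 0 in 60.9% against 53.2%. With so few cells, whether the split differs between stages was not tested, and stage, sort and library cannot be told apart.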

How the data were processed

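Smart-seq2 transcriptomes of sorted mouse hair follicle cells were analysed from estimated counts per gene. The authors made and deposited these expected counts with STAR 2.6 as the aligner of trimmed reads, mm39 as the genome and Salmon 1.4.0 as the quantifier, summed per gene. The table holds 55335 genes and 92 ERCC spike-ins, without normalisation or a filter on cells. Of the genes, 93.3% were found in GENCODE M39, which gave symbols and GRCm39 positions. The protocol does not mark strand, so overlapping genes and close paralogs are uncertain. Wells with several cells had been excluded by the authors with qPCR for Gapdh, and no doublet caller was run here.

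Counts were rounded to whole numbers. CPM was taken over gene counts, spike-ins left out. Groups came from the sample titles and labels; 1 cell with conflicting stage labels was left out. The members and gene lists were chosen with earlier results of these data known. Means per cell were compared with 1 CPM added to each, and 2-fold was the threshold, with no test because each sort is 1 pool. Named genes were the markers of the split, the 12 highest and 12 lowest by the stated limits, and list members of high mean CPM. Some list members below those were added after their values were seen, mainly those past 2-fold, along with the fibroblast, Lgr5 and Cd34-level divisions. Intervals are exact at 95% and do not cover more than counting error: several reads can come from 1 molecule. Thinning used 100000 counts per cell and a fixed seed. The comparison was checked on simulated data. Alternatives covered scaling (median of ratios, TMM of edgeR 4.0.16), weighting, depth, cell and gene filters, the Cd34 limit, wells and other cell types. Python 3.11.15, pandas 2.3.3, scipy 1.17.1 and R 4.3.3 were used.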

Additional observations from a re-analysis of the deposited data

Results flagged for a closer look

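The log2 ratio with over without Cd34 had the opposite sign, past 2-fold, in late anagen sorts for several named genes, and the differences between sorts were not tested. In the UOS sort, which has 5 cells without Cd34, the ratio was -1.56 for Col1a1 and -2.07 for Col1a2, against 2.87 and 2.68 in the CatVII alive cells, and it was 2.75 for Alox12e and 3.34 for Slc7a2, against -3.16 and -2.89. In the MOS sort, with 14 and 11 cells, it was -2.15 for Angptl7, -4.36 for Krt79, -3.33 for Adcy1, -1.96 for Col1a1 and -1.28 for Fam171b, against 1.60, 1.13, 4.20, 2.87 and 2.13, and it was 1.44 for Car12, against -3.03. Neither Ltbp2 nor Plxna2 was among these genes.

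The 32 alive cells left out for few genes or counts held 31 Cd34 counts in sum, outside the main measurement. These lay in 4 of the 32 cells (12.5%, exact Clopper-Pearson 95% interval 3.51 to 28.99), with at most 15 counts in a cell, at a median of 1677.5 gene counts over the 32 cells.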

How the results depend on the processing

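Over 27 named genes and 21 alternatives, of which 18 were chosen at the start and the others after seeing the data, 558 of 567 values kept their sign. The 9 that turned were Krt79 by the ratio of summed counts (-0.24), in cells at or above the median total (-0.82), at a minimum of 500000 gene counts (-0.65), without cells holding markers of other cell types (-0.74) or fibroblast markers (-0.76), Col3a1 without either kind of cell (-0.27 and -0.29) and Col1a2 likewise (-1.09 and -0.88). Both collagens are among the fibroblast markers by which those cells were chosen. The count of genes higher with Cd34 moved over 1.5 times when cells were thinned to 20000 annotated counts (425), in cells at or above (440) and below the median total (621), in well set 1 (508) and well set 2 (615), and with no filter on genes (684). The count of lower genes, 433, did so below the median total (791), in well set 2 (739) and with no filter on genes (1023). Fewer cells and added sparse genes are part of how those settings are built. The share with Cd34 lay between 63.4% and 72.0% wherever it was recomputed. Of the called genes, higher and lower together, 75.6% had the same sign in OSapop cells, 68.5% in UOS and 55.1% in MOS cells. Of all genes, 37.4% were above and 62.6% below 0 in OSapop, 42.3% and 57.7% in UOS, and 46.8% and 53.2% in MOS. In MOS the genes called higher were above 0 in 45.6% of cases, no more than all genes. Those called lower were below 0 there in 60.9% of cases. No paired analysis was possible because the labels give no replicate numbers that the groups share, and each sort is 1 pool of animals. By counting error alone, a Cd34 count of 0 limits the level to 9.41 CPM in the shallowest cell without it. Transcripts lost before sequencing are not covered.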
